A study of Homo sapiens with 3 samples.

Results

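In the LNCaP–ENZ168 library, 127 of 998 cells drew more than 15% of their UMIs from the mitochondrial genome, and these mitochondria-rich cells were set against the 661 cells with at most 10%. A cell is a barcode with at least 500 unique molecular identifiers (UMIs, each standing for 1 captured RNA molecule) and at least 300 genes, with no upper limit on mitochondrial UMIs. The 210 cells between the limits entered neither group, and the whole series held 2996 such cells. The groups were chosen on a measured value, the mitochondrial share, so that share describes them and is no result. Nuclear genes are given as counts per 1000000 UMIs (CPM), with mitochondrial genes left out of the total.

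LNCaP is an androgen-responsive line from a prostate cancer metastasis, and LNCaP–ENZ168 was exposed for 168 h to 10 µM enzalutamide (ENZ), an antagonist of the androgen receptor. A second prostate cancer line, VCaP, gave the other libraries: VCaP–ENZ48 (10 µM ENZ for 48 h) and VCaP parental (vehicle, 0.1% DMSO, for 48 h). All 3 were Drop-seq libraries of single cells, from lines labelled as ENZ-sensitive, with 1 library per group. LNCaP cells without ENZ were not analysed here, and every rich and other cell had received the drug, so no value below is an effect of ENZ.

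The mitochondrial genome encodes subunits of the respiratory chain, 2 ribosomal RNAs and a set of transfer RNAs, and every other mitochondrial protein is made from nuclear genes in the cytosol. Mitochondrial transcripts sit inside the organelle, nuclear non-coding RNAs inside the nucleus, and mRNAs of secreted and membrane proteins are translated at the endoplasmic reticulum (ER). In single-cell data a high mitochondrial share is often used to leave cells out.

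The mitochondrial share of the rich cells was 15.1% at the lowest, 23.5% at the median and 78.2% at the highest, against 2.54%, 7.38% and 9.99% in the other cells. By band, 44 rich cells lay between 15 and 20%, 29 between 20 and 25%, 18 between 25 and 30%, 25 between 30 and 40%, 9 between 40 and 50%, and 2 above. The 5 rich cells nearest the limit held 15.1 to 15.6%, and the 5 cells just under it held 14.8 to 14.98%. At the lower limit, the 5 nearest cells inside held 9.95 to 9.99% and those outside held 10.0027 to 10.04%. The shares thus run on across both limits, with no gap.

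The rich cells were shallower outside the mitochondrial genes. They held 461 to 9790 nuclear-gene UMIs, with a median of 2927, and the other cells 1726 to 40136, with a median of 5150. Mitochondrial UMIs per cell went the other way, with a median of 1015 in rich and 410 in other cells. Rich cells had a median of 1760 genes and other cells 2656. With each cell thinned to 1000 nuclear-gene UMIs, which left out 1 rich cell and 0 other cells, the medians were 740 and 772 nuclear genes, against 1743 and 2639 unthinned. Across all 998 cells, Spearman's rho between mitochondrial share and nuclear-gene UMIs was -0.32, and it was -0.65 within the 127 rich cells. This is a description, since both measures come from the same cells and the second enters the denominator of the first. The deepest rich cell stayed under 3 times the library's median depth, so all 127 remained when deeper barcodes, which can be doublets, were left out.

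**Figure D1:**
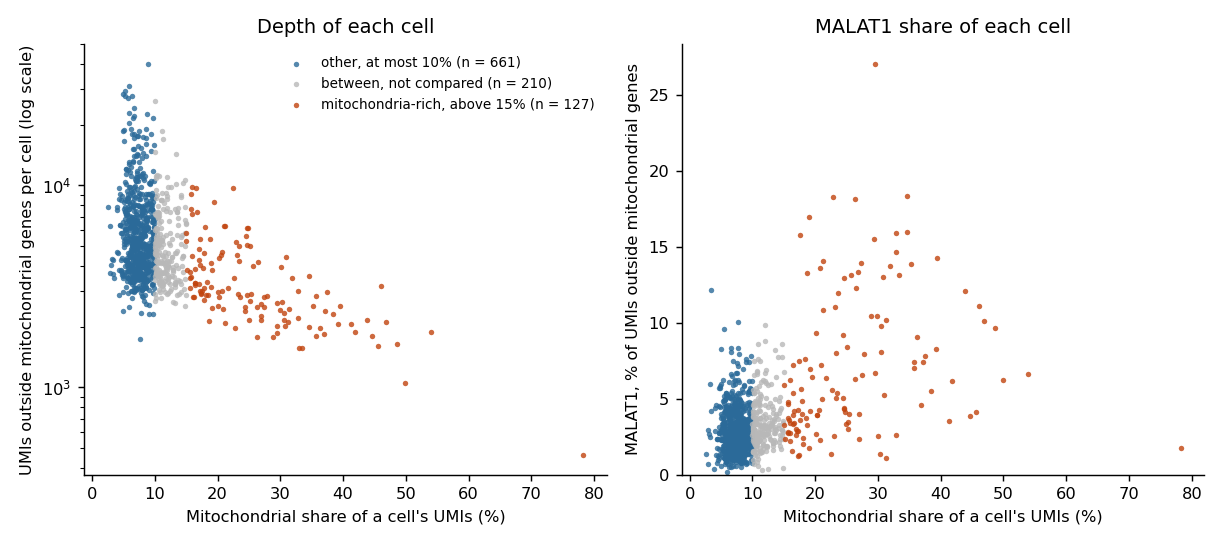
Each point is 1 of the 998 cells of LNCaP–ENZ168, by its mitochondrial share (x axis, % of UMIs) against its UMIs outside mitochondrial genes (left, log scale) and against MALAT1 as % of those UMIs (right). Orange rich cells had a median of 2927 nuclear-gene UMIs against 5150 in blue other cells, and their MALAT1 shares reached 27% against a highest of 12.1% in other cells.

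Both groups carried the markers of the line. The folate hydrolase gene FOLH1, a luminal prostate antigen, was at 1723 CPM in rich and 1092 CPM in other cells. The luminal keratin gene KRT18 was at 346 and 527 CPM. KLK3, which encodes the prostate-specific antigen, was at 103 and 109 CPM, with 34.8% of its UMIs in rich cells from 1 cell. Of 10 luminal markers TRPM8 alone had 0 UMIs in rich cells, where 5 UMIs were found in other cells. ERG, which marks VCaP, was not listed for this library, nor were the defining markers PTPRC and CD3E of immune cells, COL1A2 and DCN of fibroblasts, and the globin genes of red cells. CD68 and CD74 had 0 and 1 UMIs in rich cells, and COL1A1 and COL3A1 2 each. Of the neuroendocrine markers, ENO2 had 5 UMIs in rich and 127 in other cells, SYP and NCAM1 had 0 in rich cells, and CHGA and INSM1 were not listed. The summed UMIs of the fibroblast, immune and red cell markers in rich cells were thus at or near 0. Of the rich barcodes 18.1% ended in N against 20.9% of the others, 2 rich barcodes lay 1 base from another barcode, and 0 rich barcodes were shared with another library (1 barcode of the library was shared with each VCaP library).

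The mitochondrial RNA itself had another makeup in the rich cells. The rule used the sum of the mitochondrial UMIs and not the share of each transcript in it. The most abundant transcript gave most of that sum in both groups, so its share is not independent of the rule. MT-RNR2, the large ribosomal RNA, made up 66.6% (exact binomial 95% interval 66.3 to 66.8%) of the 143150 mitochondrial UMIs of rich cells and 57.3% (57.1 to 57.4%) of the 337770 of other cells. Per cell its share was 43.8% at the lowest, 65% at the median and 90.5% at the highest in rich cells, against 36.7%, 57.4% and 81.1% in other cells, so the groups overlapped widely. Intervals here and below cover counting error only, and since each group is a set of cells from a single library, no test was made and no difference was checked in a replicate.

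The other mitochondrial classes were lower as shares. The 13 mRNAs together held 30.9% (30.6 to 31.1%) of mitochondrial UMIs in rich and 38.8% (38.6 to 38.9%) in other cells. The transfer RNAs held 0.407% (0.374 to 0.441%) and 0.946% (0.913 to 0.979%). The proline tRNA MT-TP, which gave the most tRNA UMIs, was at 0.184% and 0.500%, and all 15 tRNAs had a lower share in rich cells. Several of their ratios had intervals that included 0, on as few as 2 UMIs in rich cells (MT-TD). The small ribosomal RNA MT-RNR1 held 2.14% (2.07 to 2.22%) in rich and 3.01% (2.96 to 3.07%) in other cells. The shares of the 2 ribosomal RNAs thus went opposite ways. All these are shares of the same total, so a larger MT-RNR2 share leaves less for the other transcripts together. As CPM with mitochondrial genes counted in the total, MT-RNR1 was at 5209 in rich and 2197 in other cells. MT-RNR2 was at 162045 and 41747 CPM on that scale. Both were thus higher there in rich cells, which the rule favours because it chose cells by their mitochondrial sum.

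Within the 13 mRNAs, MT-ND5 and MT-ND4L had the highest ratios of shares. MT-ND5, a subunit of the membrane arm of complex I, held 8.2% of mitochondrial mRNA UMIs in rich cells and 5.7% in other cells, a log2 ratio of 0.52 (0.47 to 0.58). MT-ND4L, a small subunit of the same arm, held 1.85% and 1.3%, a ratio of 0.51 (0.39 to 0.63). MT-ATP8, which shares its transcript with MT-ATP6, had a ratio of 0.28 (0.18 to 0.38). MT-CO2 and MT-CO3 of cytochrome c oxidase had -0.20 (-0.26 to -0.15) and -0.17 (-0.21 to -0.13). The complex I genes MT-ND1 and MT-ND3 were lower as well, at -0.10 (-0.16 to -0.04) and -0.14 (-0.26 to -0.02). MT-CO1 was at 16.1% and 16.5%, with a ratio of -0.033 (-0.071 to 0.0061). MT-ND4L and MT-ATP8 overlap a neighbouring gene on the same transcript, so their counts are uncertain. When 127 cells were chosen instead by the share of the 13 mRNAs, 104 were the same cells, and 111 of the 127 rich cells had a higher mRNA share than every other cell. The group was therefore mostly the same with the ribosomal RNAs left aside. The mRNAs are part of the sum that the rule used, so this overlap is a description and no support.

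Nuclear gene expression was then compared between the summed rich cells (445081 nuclear-gene UMIs) and the summed other cells (4295801). Ratios are log2 ratios of CPM + 1, rich over other, each with the exact conditional 95% interval of a ratio of counts. Genes averaging 50 CPM or more over both groups were kept. Of these 4162 nuclear genes, 43 were at least 2-fold higher in rich cells (1.03% of genes) and 26 at least 2-fold lower (0.625%). At 1.5-fold, a limit added after the data were seen, these were 283 (6.8%) and 301 (7.23%). The middle of the genes lay close to 0, with a median of -0.082 and quartiles of -0.33 and 0.23. The split of the 2-fold genes depended on the scaling, with 18 higher and 47 lower under TMM factors, 66 and 16 when scaled by the median gene ratio, and 6 and 120 when mitochondrial UMIs were counted in the totals. Of the 43 genes, 22 reached the minimum only through the rich cells, as did 15 of the 26 through the other cells. Counting mitochondrial UMIs in the totals shifted the median of all genes by -0.31. The lists below are therefore given relative to the median of all genes tested.

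The genes named next average at least 100 CPM and are no nuclear copies of mitochondrial genes. Of the 15 highest of these in rich cells, 5 were annotated as lncRNAs, as were 61 of all 4162 genes tested. The share of lncRNAs among genes of at least 100 CPM was not counted. FTX, a long non-coding RNA (lncRNA) gene (GRCh38 chromosome X, 73940435 to 74293574), had a median of 120 CPM per cell in rich cells, with a range of 0 to 1912, and a median of 0 in other cells, with a range of 0 to 1302. Summed it was at 245 and 93.1 CPM, a ratio of 1.39 (1.08 to 1.70). It had a UMI in 52.8% of rich cells and in 38.4% of other cells, although the rich cells were shallower. MACF1, a giant linker of microtubules and actin (chromosome 1, 39081316 to 39487177), was at 148 and 64 CPM, 2.3-fold higher in rich cells. The lncRNA genes CCDC18-AS1, MIR99AHG and GABPB1-AS1 had ratios of 1.17, 1.12 and 1.02. CCDC18-AS1 and GABPB1-AS1 lie antisense to other genes, whose reads could be counted for them where strand was not used. ERP44, which retains secretory proteins at the ER-Golgi boundary (chromosome 9, 99979185 to 100099052), was at 247 and 114 CPM, a ratio of 1.11 (0.81 to 1.42).

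MALAT1, an abundant lncRNA held in nuclear speckles (chromosome 11, 65497640 to 65508073), was the most abundant of these 15 genes. Per cell it was at 1.1% of nuclear-gene UMIs at the lowest, 5.5% at the median and 27% at the highest in rich cells, and at 0.213%, 2.72% and 12.1% in other cells. In 107 of 127 rich cells it lay above the median of the other cells, and in 23 above the highest of them. The groups overlapped in the rest. Its 28006 UMIs in rich cells stood for 62923 CPM, against 29123 CPM in other cells, a ratio of 1.11 (1.09 to 1.13) or 2.16-fold.

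The remaining 8 of the 15 genes highest in rich cells had ratios of 0.98 to 1.09. They included SLC12A2, the sodium-potassium-chloride cotransporter (1.09, 0.74 to 1.45), and ZMPSTE24, a membrane protease that matures prelamin A (1.08, 0.81 to 1.35). AKAP9, a Golgi and centrosome scaffold (1.05, 0.89 to 1.22), and GLG1, a Golgi glycoprotein (0.997, 0.71 to 1.29), were among them. KIDINS220, CCDC14, LRRN1 and KIAA1109 made up the rest. No single cell gave more than 8.33% of the UMIs of any of these 15 genes in the rich cells. Over the alternative settings ERP44 ran from 0.82 to 1.74 and SLC12A2 from 0.71 to 1.96.

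The 15 lowest genes under the same limits began with ARPC1A. ARPC1A, a subunit of the actin-nucleating Arp2/3 complex (chromosome 7, 99325898 to 99366262), was at 62.9 CPM in rich and 140 CPM in other cells, a ratio of -1.14 (-1.75 to -0.60). HNRNPA0, an RNA-binding protein gene without introns (chromosome 5, 137745651 to 137754363), was at 94.4 and 204 CPM, a ratio of -1.11 (-1.60 to -0.67). It had a UMI in 24.4% of rich and 67.9% of other cells, at different depths. CDK1, the mitotic kinase, was at 108 and 232 CPM (-1.10, -1.55 to -0.69). SIVA1, a pro-apoptotic protein gene, had a ratio of -1.07 (-1.64 to -0.57). Over the alternative settings CDK1 ran from -1.39 to -0.24, SIVA1 from -1.36 to -0.30 and HNRNPA0 from -1.94 to -0.71.

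Others of these 15 were FECH, TOMM22, IDH3B and COX7A2L. FECH, ferrochelatase, which closes haem synthesis in the mitochondrial matrix, was at 94.4 and 192 CPM (-1.02, -1.51 to -0.58). TOMM22, a receptor of the outer membrane import channel, was at 80.9 and 159 CPM (-0.97, -1.51 to -0.50). IDH3B, a subunit of the isocitrate dehydrogenase of the citric acid cycle, was at 71.9 and 129 CPM (-0.84, -1.41 to -0.33). COX7A2L, which joins respiratory complexes into supercomplexes, was at 94.4 and 169 CPM (-0.83, -1.32 to -0.39). The others, ITGAE, NUBP2, ACAA1, MAGEF1, BORCS7, ANAPC13 and RAB18, had ratios of -0.92 to -0.82. Over the alternative settings TOMM22 ran from -1.59 to -0.37 and ITGAE from -1.94 to -0.47.

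**Figure D2:**
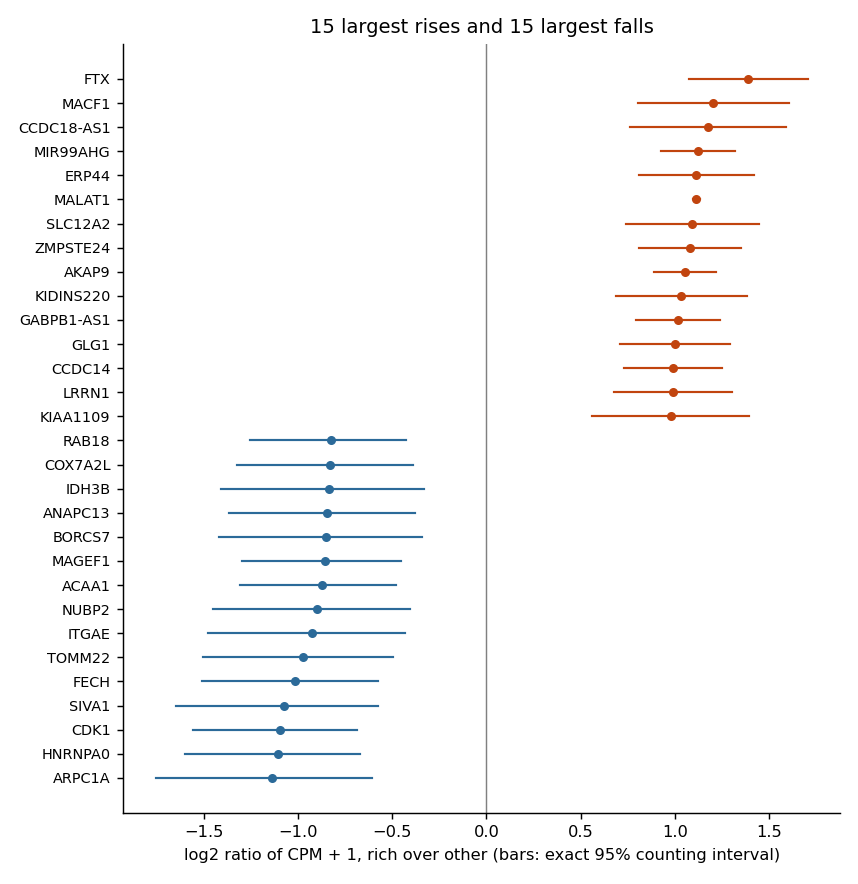
Log2 ratio of CPM + 1, rich over other cells of LNCaP–ENZ168 (x axis), for the 15 genes highest and the 15 lowest among nuclear genes averaging 100 CPM or more, outside nuclear copies of mitochondrial genes. Points are ratios and bars exact 95% counting intervals, which are narrow for MALAT1 (1.09 to 1.13) and wide for ARPC1A (-1.75 to -0.60).

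CDKN1A, the cell cycle inhibitor p21 (chromosome 6, 36676460 to 36687337), had the lowest ratio of all 4162 genes. Like TYMS and 13 others of the 26 genes at least 2-fold lower, it reached the minimum of 50 CPM only through the other cells, so its place in the order is partly set by that minimum. It had 7 UMIs in rich cells (15.7 CPM) and 398 in other cells (92.6 CPM), a ratio of -2.49 (-3.88 to -1.50). A UMI was seen in 5.51% of rich and 27.7% of other cells. Next was TYMS, thymidylate synthase, named after its values were seen, with 20.2 and 85.7 CPM and a ratio of -2.03 (-3.22 to -1.14). DDIT4, a stress-induced inhibitor of mTORC1, was at 60.7 and 128 CPM (-1.07, -1.70 to -0.53). Over the alternative settings the ratio of CDKN1A ran from -2.84 to -1.81 and that of DDIT4 from -2.30 to -0.60.

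The nuclear lncRNA list stood highest among the lists of expressed nuclear genes. By construction as many of all tested genes lay above their median as below. Of 9 nuclear lncRNAs tested 8 lay above it, with a list median of 0.70. At least 2-fold higher were 3 of the 9, where the share of all genes was 1.03%, and at least 1.5-fold higher were 5, where it was 6.8%. KCNQ1OT1, the imprinted antisense lncRNA, was at 133 and 51 CPM with a ratio of 1.36 (0.94 to 1.80). NEAT1, the scaffold of paraspeckles, was at 1150 and 749 CPM (0.62, 0.48 to 0.75). DANCR, which is largely cytoplasmic, was the member below the median, at 479 and 574 CPM (-0.26, -0.47 to -0.06). Over all 61 annotated lncRNA genes tested the median relative ratio was 0.27, against -0.0073 for 4026 protein-coding genes. As a class lncRNAs took 8.13% of nuclear-gene UMIs in rich and 4.54% in other cells, most of it MALAT1.

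ER chaperones and translocon genes were higher almost throughout. Of 44 tested genes 42 lay above the median of all genes, with a list median of 0.45. At least 1.5-fold higher were 8 of them, where the share of all genes was 6.8%, and at least 2-fold higher 1, where it was 1.03%. Their summed level was 19570 CPM in rich and 14343 CPM in other cells. HSP90B1, the ER form of HSP90, had a median of 2532 CPM per rich cell (0 to 8677) and 1653 CPM per other cell (0 to 5439). Summed it was at 2701 and 1724 CPM, a ratio of 0.65 (0.56 to 0.74). Per cell, CALR, the lectin chaperone calreticulin, had a median of 2319 CPM in rich (0 to 10846) and 1497 CPM in other cells (0 to 5197). Summed it was at 2325 and 1596 CPM (0.54, 0.45 to 0.64). HSPA5, the ER chaperone BiP, was at 1708 and 1188 CPM (0.52, 0.41 to 0.63). SEC63, a translocon partner, and HYOU1, an ER HSP70 relative, had ratios of 0.60 and 0.69. SEC61G, the smallest subunit of the translocon channel, went the other way on 18 UMIs, at -0.89 (-1.68 to -0.22). Per cell the summed ER share was 0.64% at the lowest, 1.86% at the median and 4.41% at the highest in rich cells, against 0.576%, 1.4% and 2.89% in other cells, and 28 rich cells lay above every other cell.

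Lipid synthesis and lysosome genes lay on the same side. Of 22 cholesterol and fatty acid synthesis genes 16 were above the median of all genes, with a list median of 0.39. DHCR7, a reductase of late cholesterol synthesis, had a ratio of 0.84 (0.35 to 1.32), whereas HMGCS1 and IDI1, which are soluble enzymes, were at -0.90 (-1.75 to -0.20) and -0.58 (-1.01 to -0.18). Of 29 mitophagy and lysosome genes 19 were above, with a median of 0.26. The lysosomal membrane protein LAMP2 was at 0.58 (0.38 to 0.78) and the saposin precursor PSAP at 0.57 (0.42 to 0.72), while the mitophagy receptor BNIP3 was at -0.57 (-0.86 to -0.30). CTSA, a lysosomal carboxypeptidase, was its highest member at 0.89, and ATP6V1A, a subunit of the lysosomal proton pump, its lowest at -0.62.

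Most of the list of androgen-induced targets lay higher in rich cells. Of 17 tested, 13 lay above the median of all genes, with a list median of 0.48, and 7 were at least 1.5-fold higher, where the share of all genes was 6.8%. STEAP2, a metalloreductase of the secretory route, was at 1719 and 1039 CPM (0.73, 0.61 to 0.84). STEAP1, a relative of STEAP2, had a ratio of 0.39 (0.25 to 0.53). FOLH1, which the list holds although it is known to be repressed by androgens in LNCaP, was at 0.66 (0.55 to 0.77) and is one of the 13. ACSL3, an acyl-CoA synthetase of the ER and lipid droplets, and the membrane protease TMPRSS2 were at 0.87 (0.61 to 1.13) and 0.75 (0.39 to 1.10). KLK3 was at -0.081 (-0.55 to 0.36), and its ratio ran from -0.71 to 0.55 over the alternative settings. Its close relative KLK2, with which it could share reads, was at 0.61 (-0.13 to 1.32) on 20 UMIs. FKBP5, a co-chaperone of steroid receptors, was at -0.14 (-1.09 to 0.67) on 13 UMIs. The lowest members, KRT18 and SORD, which encode a keratin and a cytosolic dehydrogenase, were at -0.61 (-0.85 to -0.37) and -0.56 (-0.98 to -0.17). MME, the membrane metalloprotease neprilysin, was at 3907 and 2939 CPM (0.41, 0.34 to 0.48).

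Cytoskeletal and glycolytic genes were lower. Of 35 cytoskeleton genes 3 lay above the median of all genes, with a list median of -0.30, and 2 were at least 2-fold lower, where the share of all genes was 0.625%. The actin gene ACTB had a median of 488 CPM per rich cell (0 to 2488) and 836 CPM per other cell (0 to 3197). Summed it was at 620 and 886 CPM (-0.51, -0.70 to -0.34), and the other cytoplasmic actin, ACTG1, was at 1809 and 2399 CPM (-0.41, -0.51 to -0.30). TUBA1B, the main alpha-tubulin, was at 508 and 820 CPM (-0.69, -0.89 to -0.50), and the light chain gene MYL6 had -0.30 (-0.43 to -0.18). Per cell the summed cytoskeleton share had a median of 1.14% in rich and 1.5% in other cells, and 24 rich cells lay below every other cell.

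Of 14 glycolysis genes 1 lay above the median of all genes, with a list median of -0.44, and 6 were at least 1.5-fold lower, where the share of all genes was 7.23%. GAPDH, a glycolytic dehydrogenase, had a median of 2376 CPM per rich cell (281 to 7092) and 3691 CPM per other cell (0 to 13366). Summed it was at 2833 and 3796 CPM (-0.42, -0.51 to -0.34). TPI1, triose phosphate isomerase, was at 946 and 1379 CPM (-0.54, -0.69 to -0.40), and ENO1, enolase, at 854 and 1067 CPM (-0.32, -0.48 to -0.17). PGK1, phosphoglycerate kinase, had a ratio of -0.72 (-0.97 to -0.48). The per-cell glycolysis share was 0.136% at the lowest, 0.6% at the median and 1.78% at the highest in rich cells, against 0.231%, 0.9% and 4.35% in other cells.

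The lists of nuclear genes for mitochondrial proteins mostly lay below all genes, several of them without a stable direction. Of 36 nuclear complex I genes 15 lay above the median of all genes, with a list median of -0.11. NDUFB9 had a ratio of 0.74 (0.54 to 0.93), while NDUFB4 was at 0.017 (-0.19 to 0.22). Complex IV had 8 of 12 genes above, with a median of 0.12, ATP synthase 2 of 16 (-0.13), complex III 1 of 9 (-0.11) and complex II 2 of 4 (-0.26). Mitochondrial ribosomal proteins had 21 of 66 above, with a median of -0.17. The lists of import (4 of 16, median -0.25), the citric acid cycle (3 of 14, -0.24), mitochondrial dynamics (4 of 17, -0.34) and mitochondrial genome expression (2 of 10, -0.13) lay below as well. Over the alternative settings the list medians crossed 0 for complex I (-0.20 to 0.23), complex IV (-0.05 to 0.63), ATP synthase (-0.27 to 0.22), mitochondrial ribosomal proteins (-0.29 to 0.042) and mitochondrial genome expression (-0.26 to 0.18). At matched depth 25 of 36 complex I genes lay above. TFAM, which packages mitochondrial DNA, was at 256 and 192 CPM (0.42, 0.12 to 0.70), and its sign turned between cells of matched depth, at -0.32. LRPPRC, which stabilises mitochondrial mRNAs, was at -0.16 (-0.62 to 0.26). The chaperonin genes HSPD1 and HSPE1 were at -0.23 (-0.35 to -0.11) and -0.45 (-0.74 to -0.17).

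The stress lists had medians below all genes. Of 26 genes of ATF4 and the integrated stress response 8 lay above the median of all genes, with a list median of -0.22. GDF15, a cytokine that mitochondrial stress induces, was at 494 and 710.5 CPM (-0.52, -0.73 to -0.33), or at 0.093 against the cells with 10 to 15% mitochondrial UMIs, and PHGDH, the entry to serine synthesis, at 324 and 494 CPM (-0.61, -0.86 to -0.37). DDIT3, which encodes CHOP, and ATF3 were at -0.27 (-0.67 to 0.11) and -0.30 (-0.61 to -0.0080). Growth arrest and apoptosis genes had 7 of 16 above, with a median of -0.09 and CDKN1A as the lowest member. The cytosolic heat shock list had 3 of 15 above (-0.31), immediate early genes 5 of 17 (-0.25) and the oxidative stress and glutathione list 8 of 26 (-0.32). CYCS, the gene of cytochrome c, was at 328 and 445 CPM (-0.44, -0.69 to -0.20).

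Cell cycle and ribosome lists had no stable direction. S phase genes had 4 of 16 above the median of all genes (list median -0.36) and G2M phase genes 11 of 28 (-0.12). Against the cells with 10 to 15% mitochondrial UMIs these medians were 0.11 and 0.33, and within matched depth 0.099 and 0.25. MKI67 and TOP2A, markers of dividing cells, were at 0.23 (-0.22 to 0.66) and -0.37 (-0.78 to 0.02), and 27.1% of the TOP2A UMIs of rich cells came from 1 cell. The cytosolic ribosomal proteins had 25 of 80 above (-0.051), a count that ran from 9 to 61 over the alternatives. RPS6 and RPL13 were at -0.25 and -0.16.

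Markers of an ENZ-induced cell cluster, which the study had derived from other LNCaP libraries, were close to all genes. Of 95 nuclear markers tested, 54 lay above the median, with a list median of 0.12. LAMA3, a laminin chain, and LRRN1 were its highest members with ATP11A, at 1.02, 0.99 and 1.01, and PLA2G2A, a secreted phospholipase, was its lowest, at -1.16 (-1.90 to -0.53). HSP90AB1 and CALD1, 2 of its 3 most abundant members, were at -0.20 (-0.28 to -0.12) and -0.17 (-0.27 to -0.08), and the third was HSP90B1 of the ER list.

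**Figure D3:**
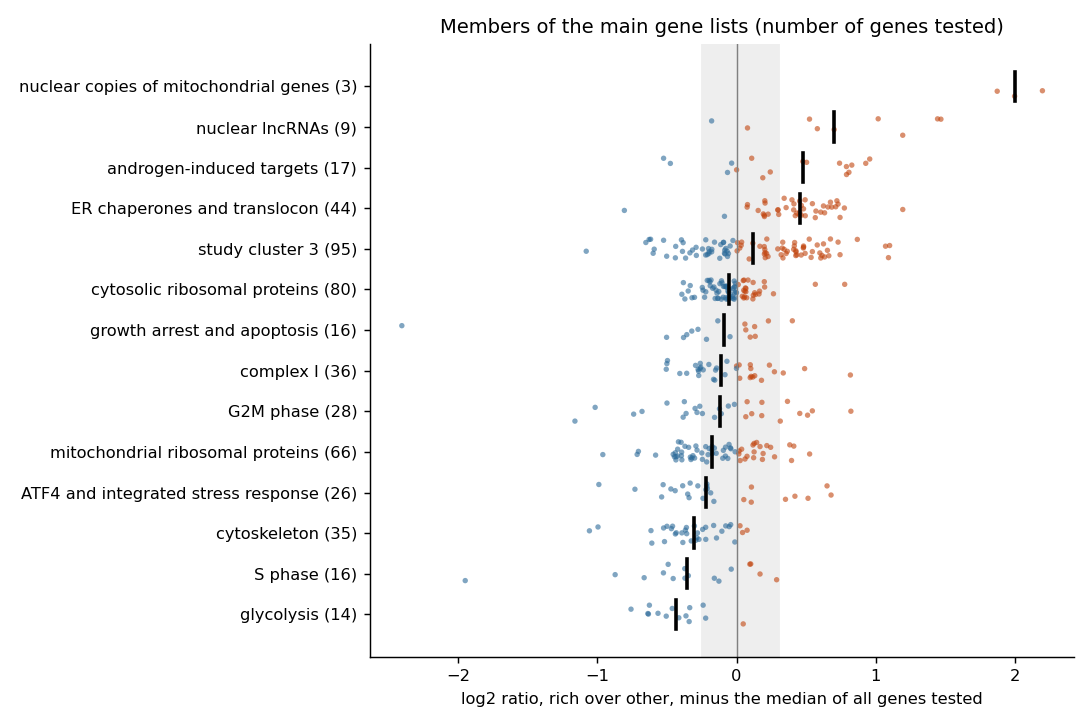
Each point is a gene of 1 of the 14 main lists, by its log2 ratio of rich over other cells of LNCaP–ENZ168 minus the median of all 4162 genes tested (x axis). Black bars are list medians, the number tested is in brackets and the grey band holds the central quartiles of all genes. The ER list (42 of 44 above) and the glycolysis list (1 of 14 above) lie on opposite sides.

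Nuclear copies of mitochondrial genes had the highest list median, and they are uncertain. These pseudogenes are near-identical to mitochondrial genes, and reads could be split between the 2. Of 66 found 3 passed the expression minimum, and MTND2P28 and MTRNR2L1 passed it only through the rich cells, so they had to be higher there. MTATP6P1 (chromosome 1, 633696 to 634376) was at 980 and 283 CPM (1.79, 1.63 to 1.95), MTND2P28 had a ratio of 1.91 (1.49 to 2.38) and MTRNR2L1 of 2.11 (1.62 to 2.69). They were left out of the genes ranked above.

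Gene length went with the ratio. Among 4026 protein-coding genes the median relative ratio was -0.15 for the 1007 with the shortest annotated transcripts, up to 1703 bases, and -0.077 and 0.046 for the next groups. It was 0.21 for the 1007 longest, whose transcripts run from about 5127 bases up. Spearman's rho between transcript length and ratio was 0.31 across these genes, which are not independent replicates. Of the protein-coding genes at least 2-fold higher, 18 were in the longest group and 0 in the shortest, and of those at least 2-fold lower 2 and 10. The rank correlation was 0.34 with coding length and 0.25 with the span of the gene. The part of gene length in the list medians was not tested.

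The differences were larger at higher mitochondrial shares, and for MALAT1, ER genes and androgen-induced targets most of the step lay above 20%. In the bands of 0 to 5, 5 to 7.5, 7.5 to 10 and 10 to 15%, MALAT1 took 2.75, 2.96, 2.88 and 3.41% of nuclear-gene UMIs. It took 4.45% in the 44 cells between 15 and 20%, 7.20% in the 47 between 20 and 30% and 8.83% in the 36 above 30%. ER genes went from 1.34% in the lowest band to 1.56% between 15 and 20%, 2.20% between 20 and 30% and 2.42% above. Androgen-induced targets took 0.544%, 0.631%, 0.819% and 0.937% in these 4 bands. Glycolysis genes went down, from 1.15% to 0.811%, 0.624% and 0.527%, and cytoskeleton genes from 1.71% to 1.32%, 1.07% and 0.916%. Ribosomal protein genes first went up, to 12.2% between 10 and 15%, and then down to 8.46%. The median nuclear-gene depth was lower in each band above 7.5%, from 4869 to 2129 UMIs.

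**Figure D4:**
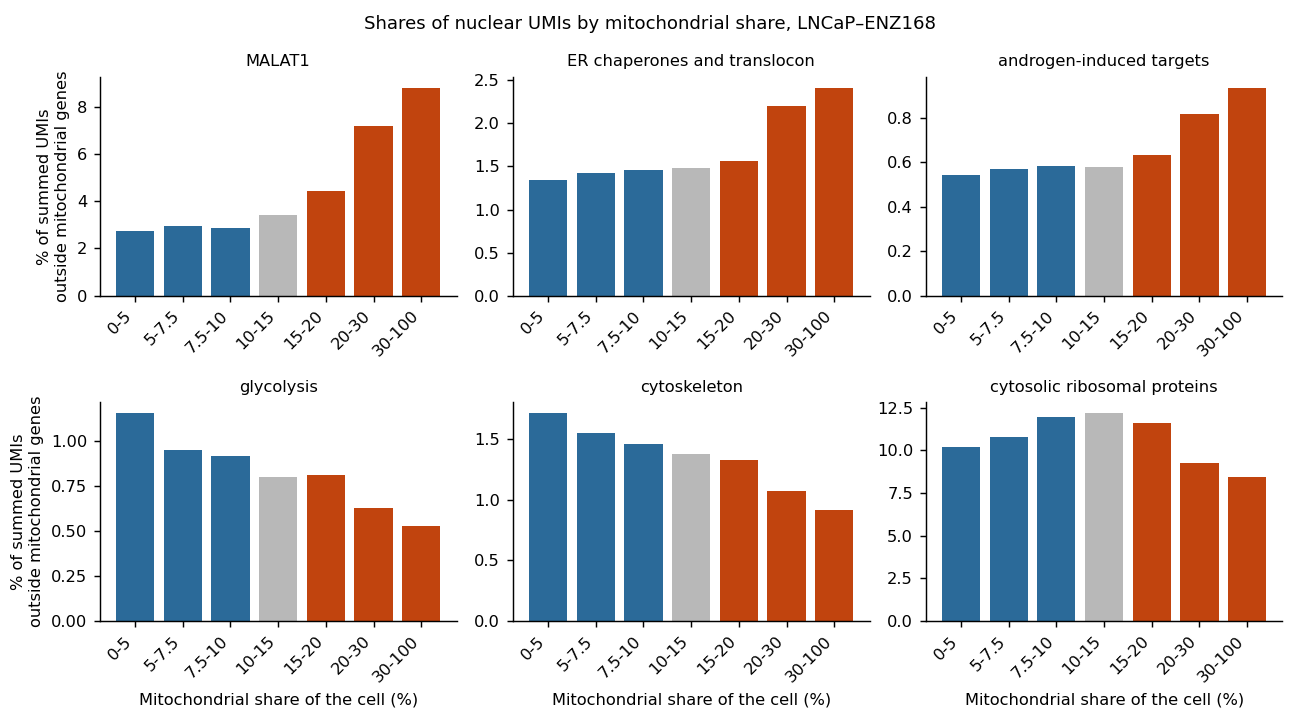
Bars give the share of 6 gene groups in the summed nuclear-gene UMIs (y axis, %, from 0) of cells in 7 bands of mitochondrial share (x axis, %), in LNCaP–ENZ168, with blue for other, grey for between and orange for rich cells. MALAT1 goes from 2.75% to 8.83%, and glycolysis from 1.15% to 0.527%, while ribosomal protein genes peak at 12.2%.

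Many rich cells showed several of these differences at once. Of 127 rich cells 68 (53.5%) had MALAT1 and ER shares above the medians of the other cells and glycolysis and cytoskeleton shares below them. Among other cells 61 of 661 did (9.23%), and among those between the limits 45 of 210 (21.4%). The share was 29.5% of rich cells up to 20% mitochondrial UMIs and 66.3% of those above. No intervals are given, since cells of 1 library are no replicates. Within rich cells Spearman's rho of the MALAT1 share was 0.48 with the ER share, -0.76 with glycolysis and -0.77 with the cytoskeleton. In the 661 other cells these were 0.0046, -0.46 and -0.31. All shares of a cell have 1 denominator, so these are descriptions. The cell with the highest mitochondrial share, 78.2%, had 1.74% MALAT1 on 461 nuclear-gene UMIs and was not among the highest. The 4 conditions were chosen after the shares were seen, so these counts give no support of their own.

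Depth moved with the group, and its part in these differences was not tested. At matched depth, a band within which depths could still differ between the groups, MALAT1 and 4 lists differed about as much or more. Between 75 rich and 167 other cells with 2000 to 4000 nuclear-gene UMIs, MALAT1 had a ratio of 1.12, against 1.11 in all cells. The list medians were 0.64 for ER genes (0.45 in all cells), -0.45 for the cytoskeleton (-0.30), -0.44 for glycolysis (-0.44) and 0.63 for androgen-induced targets (0.48). Other lists moved, with 61 of 78 cytosolic ribosomal protein genes and 25 of 36 complex I genes above the median of all genes at matched depth. Inside the other cells, the 331 shallower cells over the 330 deeper gave a MALAT1 ratio of 0.11 and list medians of -0.032 for ER, 0.038 for cytoskeleton, -0.0036 for glycolysis and 0.098 for androgen-induced genes. The same split gave -0.62 for G2M and -0.28 for ribosomal protein genes, and 0 genes were at least 2-fold higher and 3 lower. The split lay at 5150 nuclear-gene UMIs, above the rich cells' median of 2927, so it did not reproduce their depth.

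The same limits were applied to the VCaP libraries. VCaP parental had 6 rich cells of 999, too few to describe. VCaP–ENZ48 had 135 rich and 768 other cells, with median mitochondrial shares of 22.1% and 6.53% and median nuclear-gene depths of 3858 and 12221 UMIs, a wider gap than in LNCaP–ENZ168. Of its rich barcodes 94.8% ended in N, against 85.2% of its other barcodes. Line, time and depth differ together between the libraries, so their values stand side by side without a test.

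Most of the larger differences had the same sign in VCaP–ENZ48. MALAT1 was at 160882 CPM in rich and 63598 CPM in other cells, a ratio of 1.34 (1.33 to 1.35). Of 39 ER genes tested 36 lay above the median of all genes there, with a list median of 1.14, and CALR was at 1442 and 505 CPM, a ratio of 1.51 (1.41 to 1.62). FTX had a ratio of 1.12 (0.90 to 1.35) and ERP44 of 1.26 (0.94 to 1.60). The cytoskeleton list was at -0.46 (3 of 35 above). CDKN1A was at 25.8 and 57.97 CPM (-1.14, -1.98 to -0.46), on 16 UMIs in rich cells and averaging under the minimum of 50 CPM. In LNCaP–ENZ168 it had passed that minimum only through the other cells, so it adds no support. Across 2484 genes tested in both, Pearson's r between the ratios was 0.66 and Spearman's rho 0.63, as a description over genes, which are not replicates.

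The values of other lists were less alike between the libraries, which was not tested. The glycolysis list was near all genes in VCaP–ENZ48, with 5 of 10 above and a median of -0.038, although GAPDH was at -0.60 (-0.71 to -0.49). The cytosolic ribosomal proteins had 2 of 80 above and a median of -0.65, against -0.051 in LNCaP–ENZ168. Mitochondrial ribosomal RNAs held 22.4% of mitochondrial UMIs in rich and 20.1% in other cells there, against 68.7% and 60.3% in LNCaP–ENZ168. MT-ND5 held 2.69% of mitochondrial UMIs in rich and 2.44% in other cells there and was the 1 of the 13 mRNAs with a higher share. MT-ND4L and MT-ATP8 had ratios of -0.056 (-0.12 to 0.0087) and -0.075 (-0.14 to -0.0084) on that scale, and MT-ND5 0.14 (0.098 to 0.19). In LNCaP–ENZ168 the ratios on the same scale were 0.18 (0.060 to 0.30) for MT-ND4L and -0.048 (-0.15 to 0.051) for MT-ATP8. MT-ND5 was at 0.20 (0.14 to 0.25) there. The ratios given earlier for these genes are within the mRNAs alone.

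**Figure D5:**
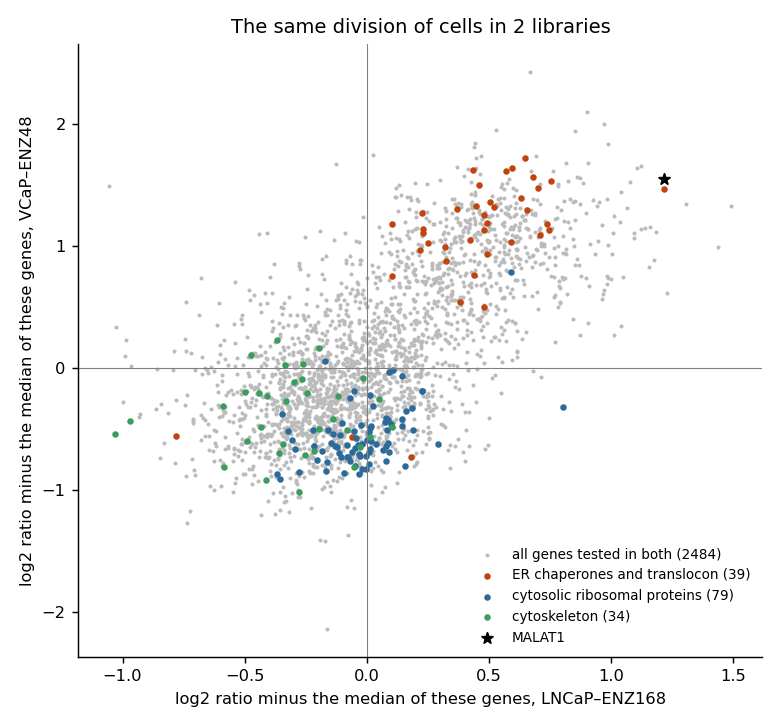
Each grey point is 1 of 2484 nuclear genes, by its log2 ratio of rich over other cells in LNCaP–ENZ168 (x axis) and VCaP–ENZ48 (y axis), each minus the median of these genes. ER genes (orange) lie mostly high in both, cytoskeleton genes (green) mostly low in both, and ribosomal protein genes (blue) lie mostly below 0 on the VCaP–ENZ48 axis and on both sides of 0 on the other.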

How the data were processed

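The data were 3 Drop-seq libraries, 1 per group. The authors used STAR for alignment to GRCh38 and Drop-seq tools with Picard for barcodes and counting on Gencode, and expected 1000 cells per sample. For other samples, processed with Cell Ranger, they left out cells by genes, molecules and mitochondrial share, with limits set per sample. The limits are described as given for other LNCaP-derived samples, and none is described for LNCaP–ENZ168. Its deposited barcodes include mitochondrial shares up to 78.2%, so no filter with a limit below that had been applied to them. They deposited raw UMI counts of genes in 1000 barcodes per library, without normalization. LNCaP–ENZ168 held 6513423 UMIs and 24350 genes, VCaP parental 19533049 and 27348, and VCaP–ENZ48 14544855 and 28928. Genes not listed for a library were taken as 0. In LNCaP–ENZ168, 2 barcodes were left out, with 324 and 4 UMIs. Unused columns of samples numbered 0.

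The cells compared, the gene lists and the alternatives were chosen with earlier results of these data known. UMIs were summed over the cells of a group and scaled to CPM without genes whose names start with MT-. Ratios are log2 ratios of CPM + 1 over genes averaging 50 CPM or more. Intervals are exact conditional 95% intervals for ratios of counts, which leave out the + 1, and Clopper-Pearson for shares. No test was made, because cells of 1 library are no replicates. A count of 0 allows up to 3 counts, which is 6.74 CPM in rich and 0.698 CPM in other cells. Doublets were not identified. An alternative dropped barcodes deeper than 3 times the median.

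Named genes were, among genes of at least 100 CPM outside nuclear copies of mitochondrial genes, the 15 highest and the 15 lowest by ratio, the 3 most abundant of each of 14 main lists, and 20 chosen genes. Members named beyond these were chosen after their values were seen. Some genes that the rule or a list names are not reported here. The 38 lists (1289 genes found) came from textbook pathways, from Seurat for S and G2M phase and from the signatures of the study, and older symbols were matched through RefSeq. Secondary lists not described above had these medians relative to all genes: proteasome -0.20 (5 of 34 above), translation factors -0.19 (7 of 31), mitochondrial chaperones and proteases -0.087 (4 of 13), hypoxia 0.0026 (3 of 6), snoRNA host genes 0.16 (8 of 15), splicing and RNA binding 0.14 (27 of 46), replication-dependent histones -0.11 (2 of 5), ENZ-induced clusters 0.0032 (69 of 137), Persist -0.12 (5 of 13) and PROSGenesis 0.18 (19 of 31). The metallothionein list had 1 gene tested, at 0.12. Gene positions, types and lengths came from Gencode 44 on GRCh38, a later release than the authors' 33, and 98.5% of tested genes matched. The steps were tested on simulated data. TMM factors came from edgeR 4.0.16 in R 4.3.3. All else was computed in Python 3.11.15 (scipy 1.17.1, pandas 2.3.3, numpy 2.4.6), and plots were drawn with matplotlib 3.10.9.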

Additional observations from a re-analysis of the deposited data

Results flagged for a closer look

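GDF15 had intervals on opposite sides of 0 in the lines treated with ENZ, and the difference was not tested. In LNCaP–ENZ168 its ratio of rich over other cells was -0.52 (-0.73 to -0.33), on 220 UMIs in rich cells. In VCaP–ENZ48 it was 1.52 (0.51 to 2.75), on 9 UMIs and with 14.5 CPM in rich and 4.42 CPM in other cells. Against the cells of LNCaP–ENZ168 with 10 to 15% mitochondrial UMIs the ratio was 0.093. Of the 84 named genes it was the 1 gene with such a pair of intervals.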

How the results depend on the processing

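No paired analysis was possible because both groups come from a single library. With rich cells above 20%, 162 genes were at least 2-fold higher and 148 lower, and 0 of 14 glycolysis, 16 of 78 cytosolic ribosomal and 13 of 65 mitochondrial ribosomal protein genes lay above the median of all genes. With rich cells of 15 to 25%, 18 genes were 2-fold higher, CALD1 was at 0.0046, and 6 of 35 cytoskeleton, 8 of 17 S phase and 39 of 80 ribosomal protein genes lay above. Against cells of 10 to 15%, GDF15 was at 0.093 and PCNA at 0.081, with 5 of 35 cytoskeleton, 3 of 13 glycolysis, 9 of 13 S phase, 17 of 25 G2M phase and 9 of 80 ribosomal protein genes above. Without deep barcodes 0 of 14 glycolysis and 48 of 80 ribosomal protein genes lay above. With equal weight for each cell, 85 genes were 2-fold higher and 56 lower, with 0 of 14 glycolysis and 46 of 78 ribosomal protein genes above. Thinned to 1000 UMIs, 200 were higher and 226 lower, with 6 of 35 cytoskeleton, 2 of 14 glycolysis, 8 of 17 S phase and 41 of 79 ribosomal protein genes above. With mitochondrial genes in the totals, 6 were higher and 120 lower, and 0 of 12 glycolysis genes lay above. TMM scaling gave 18 and 47, the median gene ratio 66 and 16, and a pseudocount of 10 CPM 19 and 12. A minimum of 20 CPM gave 129 and 110, with 2 of 16 glycolysis, 11 of 29 growth arrest and 10 of 32 S phase genes and 6 of 6 nuclear copies above. A minimum of 200 CPM gave 6 and 0, with 6 of 14 complex I, 2 of 3 nuclear lncRNA, 21 of 22 ER, 0 of 7 glycolysis, 1 of 8 stress response, 2 of 4 growth arrest, 7 of 8 androgen-induced, 1 of 2 S phase, 0 of 2 G2M phase, 29 of 57 cluster marker and 8 of 14 mitochondrial ribosomal genes and 1 of 1 nuclear copy above, from fewer genes tested.

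The next 3 alternatives were chosen after seeing the data. With 2000 to 4000 UMIs in both groups, 128 genes were 2-fold higher and 219 lower, TFAM was at -0.32, and 25 of 36 complex I, 2 of 13 glycolysis and 61 of 78 ribosomal protein genes lay above. With cells chosen by mitochondrial mRNAs, 1 of 35 cytoskeleton, 0 of 14 glycolysis, 5 of 25 stress response, 0 of 15 S phase and 42 of 79 ribosomal protein genes lay above. With barcodes ending in a base, no count of these kinds moved by more than 1.5 times. The cause of these moves was not tested, beyond the fewer cells or genes that a setting keeps. Of the list medians 781 of the values under alternatives stayed within the spread allowed and 14 moved, and of the named genes 1444 stayed, 232 moved and 4 turned in sign. For a list, that spread was the median half-width of its genes' counting intervals, so a median could change sign and still count as staying. It was 0.57 for S phase, whose median went from -0.36 to 0.11 against cells of 10 to 15%. Ranges over the alternatives were 0.30 to 0.66 for the ER median, -0.45 to -0.19 for cytoskeleton, -0.57 to -0.24 for glycolysis, 0.32 to 1.05 for nuclear lncRNAs and 0.077 to 0.63 for androgen-induced targets. Medians on either side of 0 were found for S phase, G2M phase, complex I, complex IV, ATP synthase, mitochondrial genome expression, both ribosomal lists, hypoxia, metallothioneins, histones, the ENZ-induced clusters, Persist and PROSGenesis. The 445081 UMIs of rich cells limit precision, since a gene at 50 CPM there rests on few UMIs.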
